A study of Mus musculus with 6 samples.

Results

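The genes described here are 10 that regulate hypoxia-inducible factor 1 (HIF-1) or are switched on by it: Hif1a, Egln1, Egln3, Vhl, Bnip3, Vegfa, Adm, Ddit4, Ankrd37 and P4ha1. They were taken by gene symbol from the deposited count table, which held all 10 among its 40773 symbols, and all 10 passed the filter on low counts that left 11498 genes for testing. The source of the RNA was RAW264.7, a macrophage line of the mouse transformed by Abelson leukemia virus, whose genotype is labelled plain. In the LPS plus 3A2 group the cells received 100 ng/mL of lipopolysaccharide (LPS), the bacterial product sensed by Toll-like receptor 4, together with 3A2, an antibody that neutralizes the membrane-bound matrix metalloproteinase MMP14 (50 µg/mL). In the LPS group the cells received the same LPS dose alone. Both groups were kept for 24 h and held 3 biological replicates each, so every cell studied had been given LPS, and cells without LPS or with a control antibody were not analysed here. The cells are a single line, and the labels give no oxygen level for the cultures.

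HIF-1 is a transcription factor made of an oxygen-sensitive alpha subunit, encoded by Hif1a, and a stable partner encoded by Arnt. When oxygen is present, prolyl hydroxylases of the EGLN family mark the alpha subunit, and the VHL protein then directs it to degradation. When oxygen falls, or when macrophages are activated by LPS, the subunit accumulates and drives genes of glycolysis, mitophagy, angiogenesis and growth control. In macrophages MMP14 is known to bind, through its cytoplasmic tail, the asparaginyl hydroxylase that inhibits HIF-1, and so to favour HIF-1 activity without cutting a substrate. Since the alpha subunit is also controlled as a protein, the mRNA level of Hif1a does not by itself measure HIF-1 activity, and the target genes are the nearer readout in RNA data.

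HIF-1 binds the core sequences ACGTG and GCGTG, and promoters are shown for 4 of the 10 genes. Egln3 and P4ha1 are shown because their libraries did not overlap between groups, Bnip3 because it held the most core sequences, and Ankrd37 because it held nearly as many and differed little between groups. The letters are the bases before the gene start in RefSeq (GRCm38.p6) that lie in no annotated exon, written 5′ to 3′ on the gene's strand. Capitals mark the core sequences on either strand, so CACGT and CACGC are the same sequences read from the other strand, and CACGTG holds a match on both strands and is also the E-box bound by other factors.
Egln3, chr12:54203875-54204124, minus strand: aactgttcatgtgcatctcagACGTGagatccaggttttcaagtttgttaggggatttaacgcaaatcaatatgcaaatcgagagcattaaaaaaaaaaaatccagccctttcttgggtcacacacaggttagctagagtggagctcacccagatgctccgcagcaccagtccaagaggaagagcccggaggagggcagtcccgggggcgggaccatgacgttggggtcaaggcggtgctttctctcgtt
P4ha1, chr10:59323046-59323295, plus strand: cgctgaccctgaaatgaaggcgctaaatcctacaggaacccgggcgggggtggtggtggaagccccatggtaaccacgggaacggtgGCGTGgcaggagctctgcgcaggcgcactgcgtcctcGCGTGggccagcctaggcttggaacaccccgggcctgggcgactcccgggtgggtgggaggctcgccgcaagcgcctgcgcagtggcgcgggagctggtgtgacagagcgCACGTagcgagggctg
Bnip3, chr7:138909520-138909756, minus strand: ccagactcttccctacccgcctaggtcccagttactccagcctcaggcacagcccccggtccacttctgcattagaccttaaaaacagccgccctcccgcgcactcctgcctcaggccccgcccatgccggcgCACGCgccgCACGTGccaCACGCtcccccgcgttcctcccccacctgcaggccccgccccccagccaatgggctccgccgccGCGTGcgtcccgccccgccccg
Ankrd37, chr8:45999868-46000100, minus strand: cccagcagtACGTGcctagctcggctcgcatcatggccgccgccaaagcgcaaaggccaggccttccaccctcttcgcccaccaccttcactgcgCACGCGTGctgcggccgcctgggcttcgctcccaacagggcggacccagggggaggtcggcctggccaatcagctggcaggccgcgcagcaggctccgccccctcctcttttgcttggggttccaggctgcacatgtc

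All 10 genes had a promoter in the RefSeq table, with 11 starts because Vegfa has 2. In the 250 bases before the start, 9 of the 11 held at least 1 core sequence (81.8%), against 56.3% of the starts of genes tested and 38.6% of all starts in the table. The counts that follow cover all 250 bases, including exon bases left out of the letters shown. Bnip3 held 5 matches, Ankrd37 held 4 (1 of them, 6 bases before the start, not among the letters shown), Hif1a and P4ha1 held 3 each, and Egln1, Adm and Ddit4 held 2 each. Egln3 held 1 match, Vhl held 0, and Vegfa held 0 at its first start and 2 at its second. The match in Egln3 began 229 bases before the start, and the pair that forms the E-box in Bnip3 began 108 and 107 bases before it. Hif1a held an E-box too, with its pair at 135 and 134 bases. Each such pair counts here as 2 matches, though it is a single E-box. A match is a description of the sequence and not a binding site.

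None of the 10 genes differed between LPS plus 3A2 and LPS past the threshold, and with all 6 libraries the 95% interval of each stayed within 1.5-fold. Fold changes of LPS plus 3A2 over LPS ran from 0.956 for Egln1 to 1.14 for Egln3. Of the 10, 7 lay above 1, where 50.4% of all genes tested did. At a Benjamini-Hochberg adjusted p under 0.05 over all genes, edgeR's quasi-likelihood test called 0 of the 10, where it called 0% of the 11498 genes, and the smallest adjusted p among the 10 was 0.719. At an unadjusted p under 0.05 there was 1 of the 10, Egln3, where 6.51% of all genes tested had such a p (3.43% higher and 3.09% lower). DESeq2 and limma-voom called 0 of the 10 as well. The intervals of 9147 of the 11498 genes stayed within 1.5-fold in either direction. Among the 10 this held in every edgeR fit run, except for Vhl without LPS plus 3A2 replicate 2 (upper limit 1.55-fold) and without LPS replicate 1 (1.52-fold). The median log2 fold change was 0.084 over the 10 genes and 0.002 over all genes tested.

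**Figure D1:**
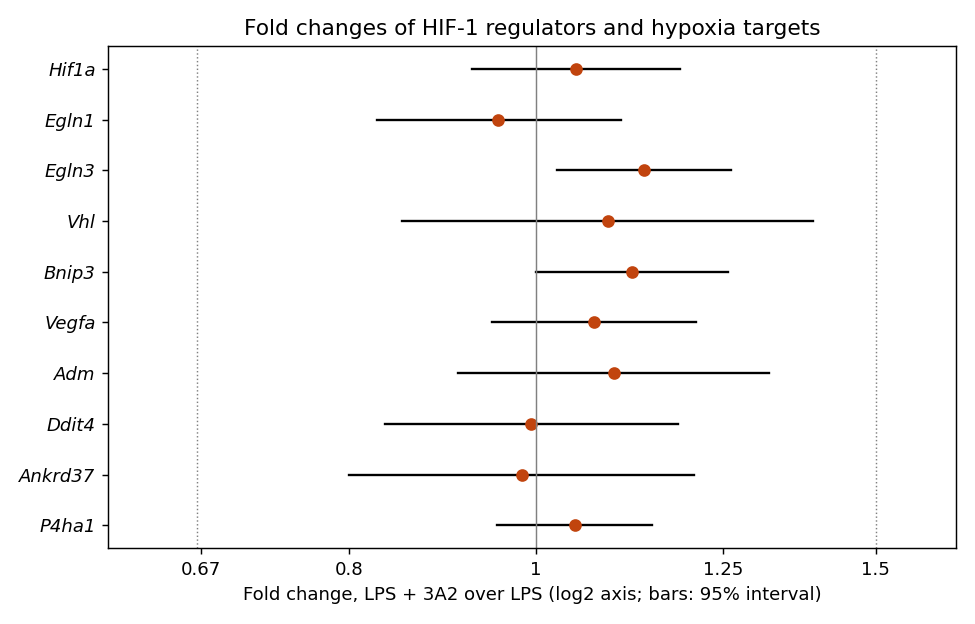
Fold change of each of the 10 genes, LPS plus 3A2 over LPS, on a log2 axis, with its 95% interval as a bar and dotted lines at 1.5-fold in either direction. Every bar lies inside the dotted lines, and only the bar of Egln3, at 1.14-fold (1.03 to 1.26), clears 1.

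Libraries held 6218086, 6537419 and 6060732 counts in the LPS plus 3A2 group and 6844331, 7432553 and 6431096 in the LPS group. Levels are given as CPM, which are counts scaled to a common library total, in which 1 count is worth 0.134 to 0.167 CPM. Of 10 macrophage markers, 10 had counts, and their summed level was 6260 to 6710 CPM in LPS plus 3A2 libraries and 7200 to 7270 CPM in LPS libraries. Lyz2 was the largest part, at a mean of 3780 CPM with LPS plus 3A2 and 4337 CPM with LPS. Lyz2, Csf1r and Itgam were lower in every LPS plus 3A2 library, an order that 6.46% of all genes tested had. The other tested markers overlapped. Spi1 stood at 0.864-fold, Fcgr1 at 0.923, Ptprc at 0.970, Cd14 at 0.981 and Cd68 at 0.988. Of the tested markers only Adgre1 lay above 1, at 1.03-fold, and Mertk was too low to test. The part of these markers in the results was not tested. Lists of T cell, B cell, fibroblast, adipocyte and epithelial markers stayed at or below 0.669 CPM per list in every library. Neutrophil markers reached 7.47 CPM, with the defining gene Ly6g at 0, and endothelial markers 10.9 CPM. Transcripts of Mmp14, the gene of the protein that 3A2 binds, had 2, 6 and 3 counts in the LPS plus 3A2 libraries and 1, 5 and 0 counts in the LPS libraries, and was too low to test in the fit. Since 3A2 acts on the protein, these counts do not check the treatment.

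Levels can be compared between genes only per length, so CPM was divided by the length of all annotated exons of each gene. In LPS plus 3A2 libraries Bnip3 stood highest, at 82 ± 9.49 CPM per kb (SD, n = 3), and in LPS libraries it stood at 73.1 ± 4.16 CPM per kb. Egln3 followed at 51.1 ± 2.29 CPM per kb with LPS plus 3A2 and 44.9 ± 2.05 with LPS. P4ha1 lay at 47.2 ± 1.33 and 45 ± 1.06 CPM per kb in the same order of groups, and Hif1a at 46.6 ± 6.33 and 44.4 ± 3.28. In each group the levels of P4ha1 and Hif1a lay within their spread. In LPS libraries those of Egln3 did too, and in LPS plus 3A2 libraries Egln3 lay within the spread of Hif1a. Below these came Vegfa at 18.4 ± 1.61 CPM per kb with LPS plus 3A2 and 17.2 ± 0.98 with LPS. Adm came next, at 14.3 ± 1.17 CPM per kb with LPS plus 3A2 and 13.1 ± 1.66 with LPS. Ddit4, Ankrd37 and Egln1 lay between 10.1 and 13.8 CPM per kb in any library, and neighbours in that order lay within their spread. Vhl was the lowest, at 4.09 ± 0.792 CPM per kb with LPS plus 3A2 and 3.75 ± 0.318 with LPS.

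Among the regulators, Hif1a, the alpha subunit, measured 275, 238 and 313 CPM in LPS plus 3A2 libraries and 270.4, 276 and 240.3 CPM in LPS libraries. The groups overlapped, and both the highest and the lowest library belonged to LPS plus 3A2. The fold change was 1.05 (95% interval 0.926 to 1.19, adjusted p = 0.889 by edgeR). Without LPS plus 3A2 replicate 3, the highest library, the log2 fold change was -0.033, against 0.069 with all libraries.

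Egln3 encodes PHD3, a prolyl hydroxylase that HIF-1 itself induces and that acts as feedback on the pathway. It measured 129.7, 142 and 137 CPM in LPS plus 3A2 libraries and 113, 123 and 123 CPM in LPS libraries. Every LPS plus 3A2 library lay above every LPS library, which held for 5.84% of all genes tested, while the opposite order held for 6.46%. Its log2 fold change was 0.19 (SE 0.072), or 1.14-fold (95% interval 1.03 to 1.26), and it did not pass, with an unadjusted p of 0.0174 and, by edgeR, an adjusted p of 0.719. By unadjusted p it ranked 270 of the 11498 genes.

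Egln1 encodes PHD2, the main oxygen-sensing hydroxylase, and lay slightly the other way. It measured 38.0, 40.8 and 36.9 CPM in LPS plus 3A2 libraries and 42.3, 36.5 and 42.4 CPM in LPS libraries. The groups overlapped, and the fold change was 0.956 (0.827 to 1.11, adjusted p = 0.916 by edgeR).

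Vhl, the substrate receptor of the ubiquitin ligase that destroys the hydroxylated alpha subunit, was the least expressed of the 10. It had 84, 62 and 82 counts in LPS plus 3A2 libraries and 84, 78 and 72 counts in LPS libraries. These counts gave the widest interval of the 10 genes, 1.09-fold with 0.852 to 1.39. Over the fits without a single library its log2 fold change ran from 0.038 to 0.279, the highest being without LPS plus 3A2 replicate 2.

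**Figure D2:**
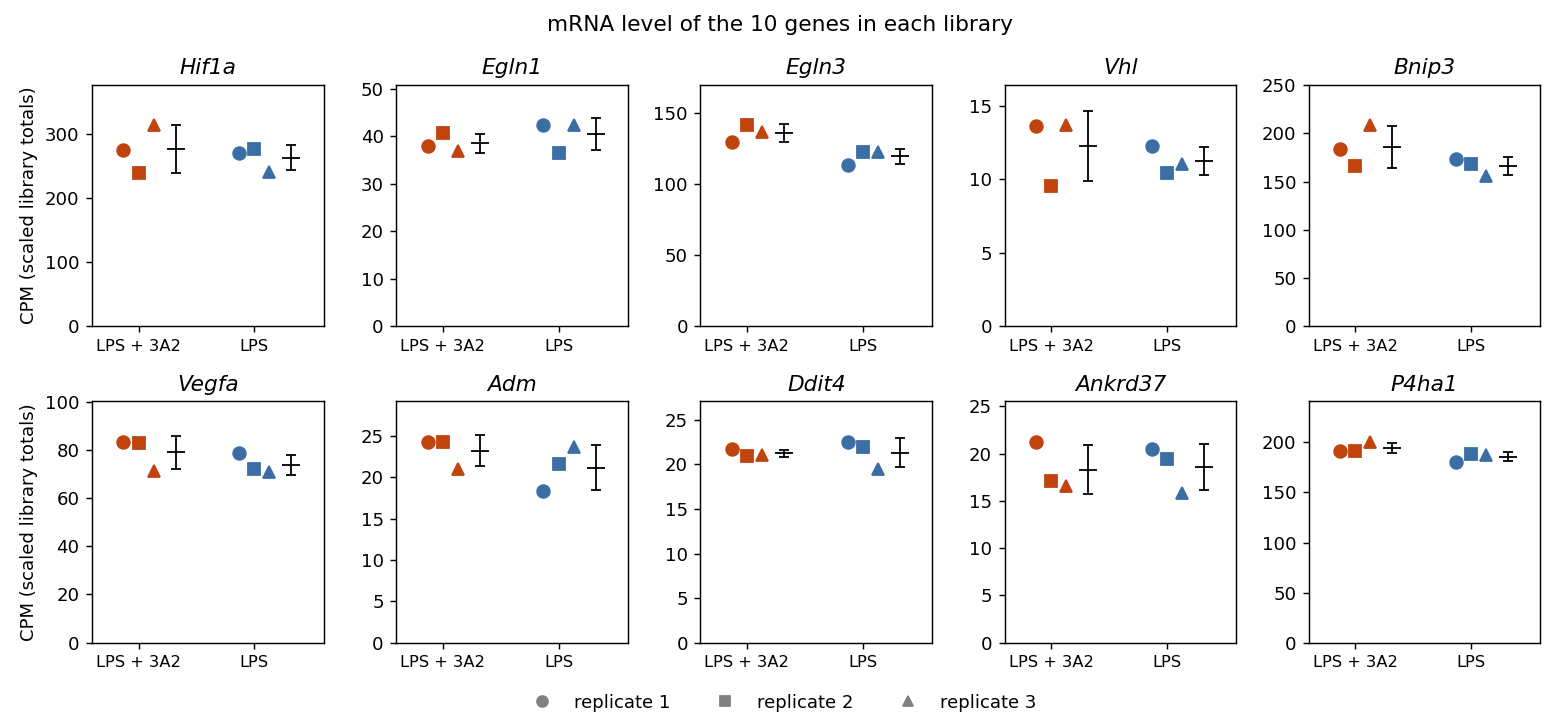
Level of each of the 10 genes in every library, in CPM on scaled library totals, with LPS plus 3A2 left and LPS right, a symbol per replicate number, and the mean with its SD as a black bar (n = 3). The groups overlap for 8 genes, while Egln3 (130 to 142 CPM against 113 to 123 CPM) and P4ha1 (191 to 201 CPM against 181 to 189 CPM) separate narrowly.

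Among the targets, Bnip3, a mitochondrial membrane protein that triggers mitophagy, came next to Egln3. It measured 184, 166 and 209 CPM in LPS plus 3A2 libraries and 174, 168 and 156 CPM in LPS libraries. The second LPS plus 3A2 library lay below a pair of LPS libraries, so the groups overlapped. The fold change was 1.12 (95% interval 0.9997 to 1.26), with an unadjusted p of 0.0505, and the adjusted p was 0.748 by edgeR.

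The libraries' order for Bnip3, from LPS plus 3A2 replicate 3 down to LPS replicate 3, was the same as their order for the summed level of 13 mitochondrially encoded mRNAs. That sum was 25670, 21980 and 30930 CPM in LPS plus 3A2 libraries and 23580, 22320 and 21910 CPM in LPS libraries. The order was not particular to Bnip3, since the LPS response gene Ptgs2 had it too. How many of all genes tested had this order was not counted, and a link to Bnip3 was not tested. Without LPS plus 3A2 replicate 3 the log2 fold change of Bnip3 was 0.075, against 0.17 with all libraries, and without LPS plus 3A2 replicate 2 it was 0.24 (adjusted p = 0.118 by edgeR). With the mitochondrial mRNA level as a covariate, a fit added after the data were seen, it was 0.019 (adjusted p = 0.972 by edgeR). The covariate ordered the libraries as Bnip3 did, and its highest levels, 30930 and 25670 CPM, were in LPS plus 3A2 libraries. A smaller value of Bnip3 in this fit therefore does not test a link between them. In the same fit Egln3 stood at a log2 fold change of 0.21 (adjusted p = 0.239), Hif1a at -0.1 (0.642) and Vhl at -0.09 (0.954), by edgeR. The median over the 10 genes was 0.001 in that fit.

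Of the secreted products, Vegfa encodes the main angiogenic growth factor of hypoxic tissue. It measured 83.4, 82.7 and 71.1 CPM in LPS plus 3A2 libraries and 78.7, 72.0 and 70.9 CPM in LPS libraries. Its groups overlapped, with a fold change of 1.07 (0.949 to 1.21, adjusted p = 0.840 by edgeR). Adm encodes the vasodilator peptide adrenomedullin. It measured 24.3, 24.3 and 21.0 CPM in LPS plus 3A2 libraries and 18.3, 21.7 and 23.6 CPM in LPS libraries. Here too the groups overlapped, at 1.10-fold (0.911 to 1.32, adjusted p = 0.854 by edgeR). For both genes LPS plus 3A2 replicate 3, the highest library for Hif1a and Bnip3, was the lowest of its group.

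The intracellular targets Ddit4 and Ankrd37 were the closest to no difference. Ddit4 encodes REDD1, an inhibitor of the growth kinase complex mTORC1, and measured 21.7, 20.9 and 21.0 CPM in LPS plus 3A2 libraries and 22.6, 21.9 and 19.5 CPM in LPS libraries. The LPS plus 3A2 values lay inside the range of the LPS values, at 0.994-fold (0.835 to 1.19, adjusted p = 0.991 by edgeR). Ankrd37, an ankyrin repeat protein and a sensitive HIF-1 target, measured 21.3, 17.1 and 16.5 CPM in LPS plus 3A2 libraries and 20.5, 19.4 and 15.8 CPM in LPS libraries. Its groups overlapped over nearly their whole range, at 0.983-fold (0.800 to 1.21, adjusted p = 0.979 by edgeR). Ankrd37 shares 349 exon bases, or 22.7% of its exon length, with Lrp2bp on the opposite strand, but Lrp2bp had 3 counts in all 6 libraries against 729 for Ankrd37. It also shares 57 bases with Ufsp2, which had 2566 counts. Bnip3 shares 504 exon bases with the antisense gene Gm45507, a symbol that the count table did not hold. Reads of that stretch cannot be assigned with the strand setting unknown. Hif1a shares 148 exon bases, or 2.51% of its exon length, with Gm49321 on the same strand. It also shares 330 with the antisense gene Gm15283, which had 0 counts. The count table held neither Gm49321 nor Vhl-ps1, a processed pseudogene of Vhl.

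P4ha1 encodes the catalytic subunit of the prolyl hydroxylase that stabilizes collagen, and it had the narrowest interval of the 10. It measured 191, 191 and 201 CPM in LPS plus 3A2 libraries and 181, 189 and 187 CPM in LPS libraries. Every LPS plus 3A2 library lay above every LPS library, but the difference was small, at 1.05-fold (0.955 to 1.15, adjusted p = 0.854 by edgeR). With Egln3 it made 2 of the 10 genes whose groups did not overlap, where 12.3% of all genes tested did not overlap in either direction.

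**Figure D3:**
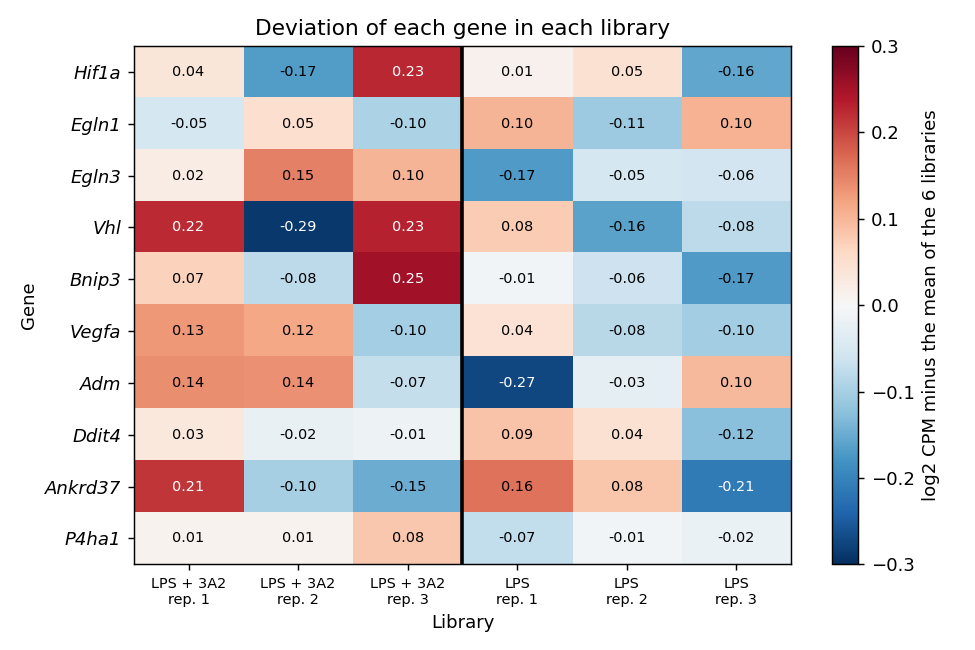
Log2 CPM of each gene in each library minus its mean over the 6 libraries, with LPS plus 3A2 left of the black line and LPS right of it. Hif1a, Vhl and Bnip3 share a high LPS plus 3A2 replicate 3 (0.23 to 0.25), while Egln1, Vegfa, Adm and Ankrd37 are low in the same library (-0.15 to -0.07).

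The 10 genes did not share an order of the libraries. Their median deviation from the mean of all libraries was 0.053, -0.006 and 0.032 on the log2 scale in LPS plus 3A2 libraries and 0.029, -0.04 and -0.092 in LPS libraries. LPS replicate 1 lay within the range of the LPS plus 3A2 libraries. The largest spread over the 6 libraries was that of Vhl, 1.43-fold from lowest to highest, and the smallest that of P4ha1, 1.11-fold.

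Beyond these 10, 115 further genes of the pathway were listed, and 88 of them were tested. By edgeR 0 were called higher and 0 lower, and 8 had an unadjusted p under 0.05 (9.09%), 3 of them higher and 5 lower. On the log2 scale 35 lay above 0 (39.8%, against 50.4% of all genes tested) and 53 below, with a median log2 fold change of -0.019. Apart from Hif1a and Arnt, the HIF subunits were near the detection limit. Arnt measured 73.3 ± 4.91 CPM with LPS plus 3A2 and 74.4 ± 4.91 CPM with LPS, or 0.986-fold (95% interval 0.875 to 1.11).

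Of 9 other genes of oxygen sensing and degradation, 6 lay above 0 and 3 below. Eloc, a subunit of the VHL ubiquitin ligase, had the smallest p, at 1.16-fold (0.978 to 1.38, adjusted p = 0.761 by edgeR). Os9, whose human product has been reported to bind HIF-1 alpha, was the most abundant, at 0.908-fold (0.805 to 1.02). Coactivators and modulators lay mostly below 0, in 8 of 11. Kdm3a, a histone demethylase induced by hypoxia, measured 42.2 ± 1.87 CPM with LPS plus 3A2 and 49.3 ± 3.19 CPM with LPS, or 0.856-fold (0.748 to 0.979, adjusted p = 0.734 by edgeR). Pkm, a pyruvate kinase, was the most abundant of that list at 0.951-fold.

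The partners of the targets lay near 1 as well. Of 6 mitophagy and mitochondrial genes, 5 lay above 0, with the mitophagy receptor Fundc1 at 1.16-fold (0.950 to 1.42) and Fam162a at 1.02-fold. Among 5 ligands and receptors of the VEGF and adrenomedullin families, 2 lay above 0 and 3 below. Vegfb, a second VEGF ligand, measured 30.4 ± 1.94 CPM with LPS plus 3A2 and 34.8 ± 1.23 CPM with LPS, or 0.876-fold (0.753 to 1.02, adjusted p = 0.761 by edgeR), on the other side of 1 from Vegfa. Nrp2, a VEGF co-receptor, stood at 0.931-fold.

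In the REDD1 and mTORC1 list 3 of 11 genes lay above 0. Akt1s1, which encodes the mTORC1 inhibitor PRAS40, measured 20.8 ± 0.945 CPM with LPS plus 3A2 and 25.3 ± 1.27 CPM with LPS, or 0.823-fold (0.694 to 0.975, adjusted p = 0.737 by edgeR). Txnip, an arrestin family protein that limits glucose uptake, stood at 0.998-fold. Among collagen hydroxylases 1 of 6 lay above 0, and P4hb, which pairs with the product of P4ha1, stood at 0.950-fold, while P3h3, a prolyl 3-hydroxylase, stood at 0.838-fold (0.631 to 1.11).

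Glycolytic targets lay below 0 in 14 of 18 (22.2% above 0, against 50.4% of all genes tested), with a median log2 fold change of -0.032. In most of the 14 the lowest library was LPS plus 3A2 replicate 3. Gapdh, the most abundant, measured 3264, 3550 and 2811 CPM in LPS plus 3A2 libraries and 3347, 3287 and 3592 CPM in LPS libraries. Pfkl, a phosphofructokinase, stood at 0.909-fold (0.824 to 1.002, adjusted p = 0.748 by edgeR) and Gapdh at 0.941-fold. Other hypoxia targets had 9 above 0 and 7 below. Hilpda, a lipid droplet protein induced by HIF-1, measured 77.2, 74.7 and 93.2 CPM in LPS plus 3A2 libraries and 67.7, 65.0 and 64.0 CPM in LPS libraries. Its LPS plus 3A2 libraries all lay higher, an order that 5.84% of all genes tested had. The fold change was 1.24 (1.10 to 1.41), with an unadjusted p of 0.00188, and the adjusted p was 0.719 by edgeR. Ero1a, an oxidase of the endoplasmic reticulum, stood at 1.12-fold (0.997 to 1.26). Of 5 LPS response genes linked to HIF-1, 2 lay above 0 and 3 below, with Ptgs2 at 1.12-fold (adjusted p = 0.748 by edgeR). Acod1, which makes itaconate, measured 1253, 1269 and 1235 CPM in LPS plus 3A2 libraries and 1428, 1488 and 1490 CPM in LPS libraries. Its LPS plus 3A2 libraries all lay lower, an order that 6.46% of all genes tested had. The fold change was 0.853 (0.788 to 0.924). Its unadjusted p of 0.000461 was the smallest among the pathway genes, with 0.53 as the adjusted p by edgeR.

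**Figure D4:**
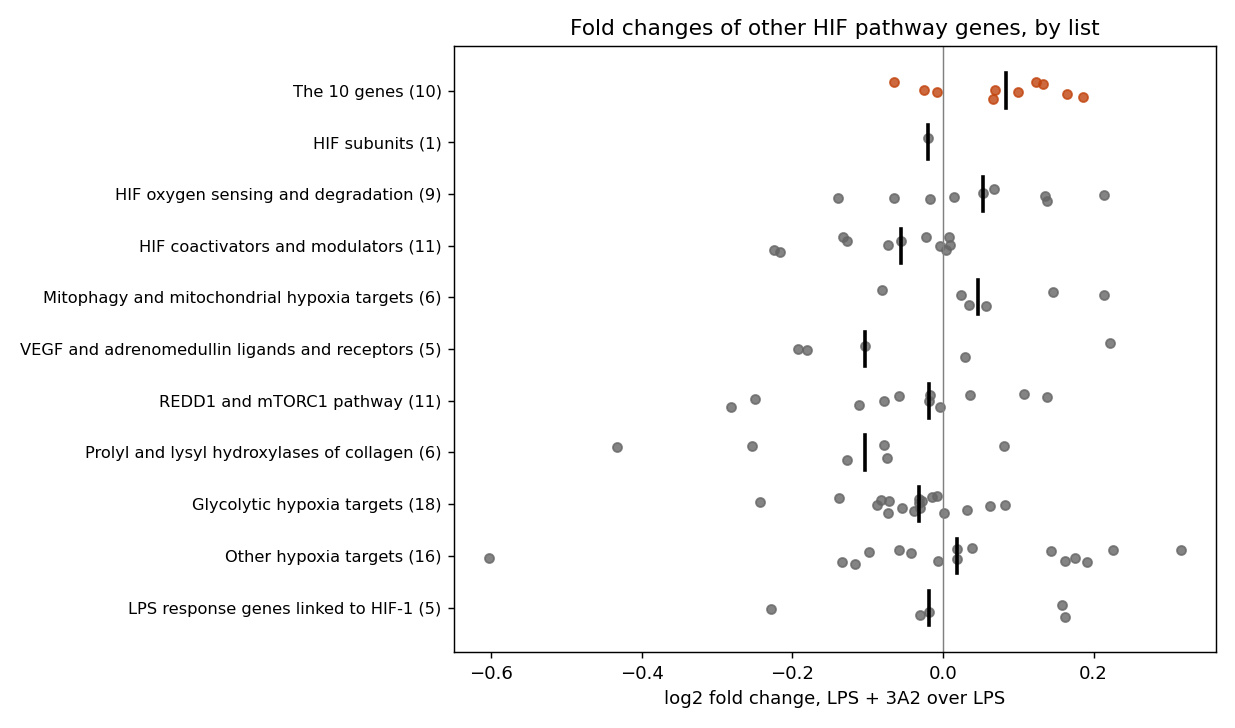
Log2 fold change, LPS plus 3A2 over LPS, of the 10 genes and of other tested pathway genes by list, with the number of genes in brackets, a point per gene and the median as a black bar. The median of the 10 genes lies at 0.084, and those of the other lists lie on both sides of 0, with glycolytic targets at -0.032.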

How the data were processed

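RNA of 6 RAW264.7 cultures was sequenced, per the labels' protocols after rRNA depletion, as strand-specific paired-end libraries. The authors deposited raw read counts per gene symbol, 1 column per library, with no pooling. HISAT2 and edgeR are named without a role, per the submitters' processing notes, which also name the human build GRCh38, while the symbols are those of mouse. Not given in the sources used here are the annotation, the strand setting and the program that counted reads. In unnamed columns 7 typed cells were not used.

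Genes of low count were removed with filterByExpr and totals were scaled by TMM. The robust quasi-likelihood test of edgeR 4.0.16, in R 4.3.3, compared LPS plus 3A2 with LPS, two-sided, with no covariate and with Benjamini-Hochberg adjustment over all 11498 genes (threshold 0.05). Intervals are at the 95% level. The biological coefficient of variation was 0.0768. The fit was tested on simulated data. Exon lengths came from GENCODE vM21 and promoters from RefSeq, both on GRCm38, which may differ from the annotation the authors used.

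The 10 genes and the lists were chosen with earlier results of these data known. Beside the 10, Mmp14 and the cell type markers, the genes named are those with the smallest p and the highest level in each list. Alternatives were other scalings and filters, DESeq2 1.42.0, limma-voom (limma 3.58.1), the replicate number as a block, leaving out each library, and a covariate added after the data were seen. Each pair of libraries differed by more than sampling noise (chi-square over its degrees of freedom 3.46 to 23.5). The largest value was between replicates 2 and 3 of LPS plus 3A2, and the smallest between replicates 2 and 3 of LPS. Across groups, LPS replicate 1 and LPS plus 3A2 replicate 1 stood at 3.59, so some replicates differed more than libraries of different groups.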

Additional observations from a re-analysis of the deposited data

How the results depend on the processing

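None of the 10 genes was called under any of the 14 alternatives, and 130 of the 140 single values kept their direction. Egln3, Bnip3, Vegfa, Adm and P4ha1 lay above 0 in all 14 and Egln1 below 0 in all 14, and Egln3 ran from 0.149 to 0.22 on the log2 scale. The sign changes were in Hif1a, Vhl, Ddit4 and Ankrd37. Ddit4 turned to 0.002 without LPS plus 3A2 replicate 2, 0.033 without LPS replicate 1 and 0.013 without LPS replicate 2. Ankrd37 turned to 0.023 and 0.04 without LPS plus 3A2 replicates 2 and 3, and to 0.05 and 0.008 without LPS replicates 1 and 2. Over the fits without a single library Hif1a ran from -0.033 to 0.163, Ddit4 from -0.067 to 0.033 and Ankrd37 from -0.145 to 0.05. Hif1a turned to -0.033 without LPS plus 3A2 replicate 3 and to -0.1 with the mitochondrial mRNA level as a covariate, and Vhl to -0.09 with that covariate. The median of the 10 genes was 0.042 to 0.089 without a single library and 0.001 with the covariate. Why these values moved was not tested.

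Over all genes, where 0 were called, 13 were called higher and 3 lower without a filter on low counts. With the covariate 13 were called higher and 11 lower. Leaving out a library gave 0 to 20 higher and 0 to 5 lower, the most without LPS plus 3A2 replicate 2. With the replicate number as a block 1 gene was called higher and 0 of the 10 genes were called. Deviations from the group means correlated at -0.016, 0.016 and -0.178 between libraries of the same number. Between libraries of different numbers the correlations ran from -0.182 to 0.182. With 3 libraries a group these values cannot show whether the numbers mark a pairing. Intervals rest on 3 libraries a group and on the spread between them as well as on depth.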

Other observations

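Several partners of these genes were near or at 0 in both groups. They are named here after their values were seen, as is Calcrl, which was well expressed. Epas1, which encodes the alternative alpha subunit HIF-2 alpha, had 4, 12 and 3 counts in LPS plus 3A2 libraries and 5, 4 and 9 counts in LPS libraries. Hif3a had 2, 3 and 2 counts in LPS plus 3A2 libraries and 2, 0 and 0 in LPS libraries. Calcrl, the receptor through which adrenomedullin signals, had 1271, 986 and 1454 counts in LPS plus 3A2 libraries and 1267, 1347 and 967 in LPS libraries. The accessory proteins that make it an adrenomedullin receptor were close to 0. Ramp2 had 3, 1 and 1 counts in LPS plus 3A2 libraries and 1, 2 and 0 in LPS libraries, and Ramp3 had 1 count in each group. In a library at 0 counts the limit was 0.401 to 0.501 CPM (3 counts), which covers counting error only. Plod2 and P4ha3, collagen hydroxylases that are hypoxia targets or relatives of P4ha1, had 0 counts in all 6 libraries.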
